A study of Mus musculus with 10 samples.

Results

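The interferon-induced antiviral effector genes are the genes that cells switch on after sensing an interferon and whose products act against viruses. The group was chosen by name, with earlier results of these data known. It holds 43 genes, of which 41 were measured, among 18193 genes on the arrays. Each gene was read from the probe set that names it alone and has the highest mean over all 10 arrays. Isg15 was left out because its only listed probe set carries several genes, and Ifi44 because it has no listed probe set. Of the 41 genes, 24 had a single such probe set and 17 had several.

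Expression was measured in bone marrow cells of C57BL/6 mice aged 5 to 6 weeks, in 3 groups. Every group, the controls included, was infected with a MigR1 retrovirus that carries a green fluorescent marker. The GFP group (3 arrays) received the virus with the marker alone, the AML1/ETO group (3 arrays) the virus encoding the leukaemia fusion protein AML1/ETO, and the W692A group (4 arrays) the virus encoding AML1/ETO with the W692A substitution. AML1/ETO joins the DNA-binding part of RUNX1 to most of the corepressor ETO, and W692A lies in the MYND domain, the part of ETO that contacts the corepressors SMRT and N-CoR. The study asks what that contact contributes to the activity of the fusion protein. Lineage-depleted, Sca1-selected cells were grown in IL-3 (10 ng/ml), IL-6 (20 ng/ml) and SCF (10 ng/ml) and transduced in rounds 24 hours apart. At 48 hours after the second round, 25000 living cells were sorted that were positive for the marker, Sca1 and cKit and negative for lineage markers. These were uncloned populations with their own Runx1 genes intact, and the transductions were kept apart within a group. The labels do not say whether they came from different mice, so p-values measure the spread between these samples.

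The deposited values are log2 signals. Probe sets for the Bacillus control genes trpn, thr, phe, lys and dap reached at most 2.04 on any array, called the background bound below, and this came from a single control, the next brightest reaching 0.84. A fold against a group with any array below the bound is given as "at least", with those values set to the bound. Of the 41 genes, 27 were above the bound on every array, and Ube2l6 and Ifi204 were at or below it on every array. With GFP, 12 genes were at or below the bound on every array. With AML1/ETO, 36 were above it on all 3 arrays. Over the 8820 genes that exceeded the bound in the mean of some group, correlations ran from 0.984 to 0.992 within groups and from 0.892 to 0.965 between them. Of 9 measured markers of the sorted cells, 8 were above the bound. Kit was at or below it on every array, although the cells were sorted as positive for cKit. A reading at background therefore does not show that a gene was silent.

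Type I interferons bind a receptor of the subunits Ifnar1 and Ifnar2, whose kinases Jak1 and Tyk2 phosphorylate STAT proteins. A complex with Stat2 and Irf9 then enters the nucleus and binds interferon-stimulated response elements in front of the effector genes. In blood stem and progenitor cells interferon is known to push resting cells into division, and stem cells keep some of these genes on without infection.

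With AML1/ETO, 36 of the 41 effector genes rose against GFP, 3 fell and 2 did not pass the test. With W692A against GFP, 5 rose, 7 fell and 29 did not pass. Compared directly, 38 of the 41 were lower with W692A than with AML1/ETO, 1 was higher and 2 did not pass. Ifit1 rose 40.4-fold with AML1/ETO and Ifi27l2a 31.5-fold, and both were within 2-fold of GFP with W692A. Both comparisons with GFP share the GFP arrays, and both comparisons with AML1/ETO share those arrays.

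These counts stand beside a background of all 18193 genes tested with limma at an adjusted p of 0.05. Between AML1/ETO and GFP, 12.9% of all genes were called higher and 15.8% lower, against 87.8% and 7.32% of the effector genes. The median log2 difference of the effector genes was 1.34 (from -1.52 to 5.34), and that of all genes was -0.02. Between W692A and GFP, 5.45% of all genes were called higher and 9.07% lower, against 12.2% and 17.1% of the effector genes. The median was -0.13 (from -1.25 to 0.95), against 0.01 for all genes. Between W692A and AML1/ETO, 9.61% of all genes were called higher and 11.1% lower, against 2.44% and 92.7% of the effector genes, with a median of -1.44 (from -4.93 to 0.99) against 0.03.

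The arrays of the groups were also set side by side without a model. Every AML1/ETO array was above every GFP array for 36 genes and below for 3, where 18.1% of all genes were apart in the first way and 21.0% in the second. Every W692A array was above every GFP array for 8 genes and below for 9, against 9.85% and 12.5% of all genes. W692A arrays all lay above those of AML1/ETO for 1 gene and below for 36, against 13.7% and 13.5% of all genes.

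**Figure D1:**
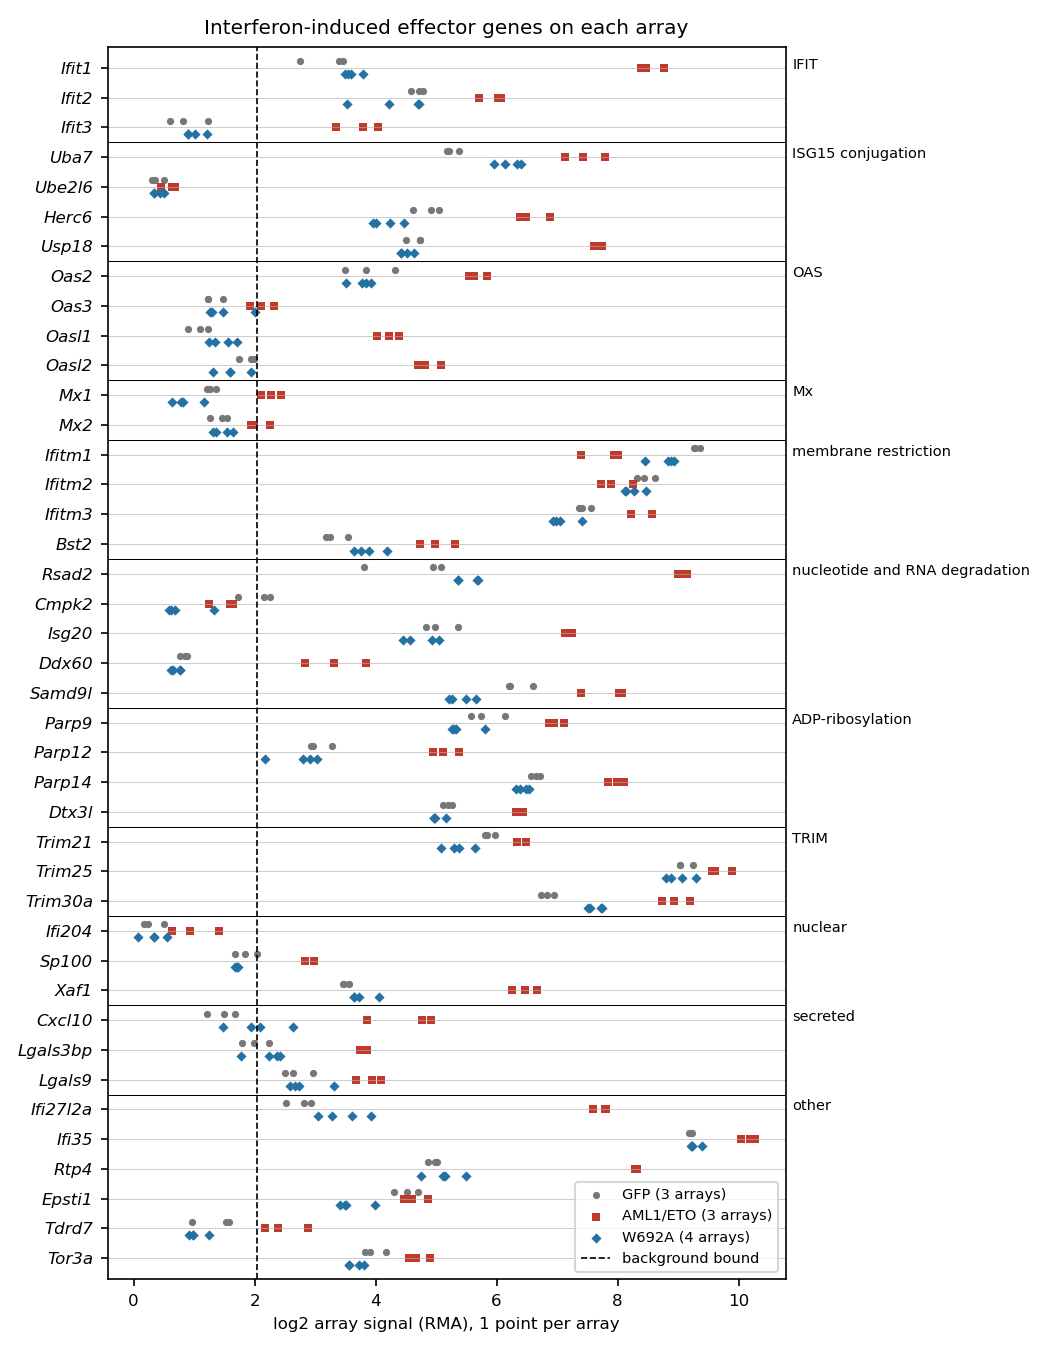
Log2 array signal (x axis) of the 41 effector genes, 1 row per gene grouped by role, with 1 point per array for GFP (3), AML1/ETO (3) and W692A (4), and the background bound of 2.04 as a dashed line. For 36 genes every AML1/ETO point lies right of every GFP point, while for 24 of the 41 the W692A points overlap those of GFP.

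The promoters of these genes were examined for the response element. RefSeq windows (GRCm38.p6) from 250 bases before to 50 after the start were held for 31 of the 41 genes. The core searched for on both strands, GAAA followed by any 2 bases and GAAA again, was found in 13 of 31 (41.9%), against 3.99% of 27025 genes with a window. These were Ifit1, Ifit3, Oas3, Ifitm2, Ifitm3, Bst2, Rsad2, Ddx60, Trim21, Trim30a, Cxcl10, Lgals9 and Tdrd7. Of the 13, 12 rose with AML1/ETO and 1, Ifitm2, fell, with a median log2 difference of 1.69. Of the 18 genes with a window and no such core, 14 rose, 2 fell and 2 did not pass, with a median of 1.37. The RUNX core TGTGGT, a sequence that the AML1 part of the fusion binds, was in 4 of 31 (12.9%), Oasl2, Cmpk2, Isg20 and Lgals9, against 18.9% of genes. A STAT dimer site, TTCNNNGAA, was in 5 of 31 (16.1%), Ifit2, Ifitm3, Bst2, Isg20 and Ifi35, against 9.55% of genes. A match is a stretch of letters and does not show that a factor binds there.

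The stretches around the core are shown for the genes that rose most in their role group and hold it, for Ifit3 and Ddx60, which hold 2 copies before the start, and for Ifitm2, the 1 gene with the core that fell. Capitals mark the core, in either orientation, and each is written 5′ to 3′ on the strand of its gene. Ifit1 holds 2 copies at chr19:34640765-34640833 (plus strand), Ifit3 holds 2 at chr19:34583353-34583436 (plus), Ddx60 holds 2 at chr8:61928014-61928086 (plus), and Bst2 holds 2 that overlap at chr8:71537567-71537622 (minus). Rsad2 holds 1 at chr12:26456543-26456592 (minus), Cxcl10 holds 1 at chr5:92349073-92349122 (minus), Trim30a holds 1 of its 2 copies at chr7:104465200-104465249 (minus), and Ifitm2 holds 1 at chr7:140955978-140956027 (minus). The stretches printed all lie upstream of the annotated start of the gene. Copies at or after the start, in Trim30a, Lgals9, Trim21 and Ifitm3, are not printed.
Ifit1: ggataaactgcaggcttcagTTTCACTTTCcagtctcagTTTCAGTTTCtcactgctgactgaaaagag
Ifit3: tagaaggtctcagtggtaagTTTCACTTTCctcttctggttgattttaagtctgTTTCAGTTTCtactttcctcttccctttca
Ddx60: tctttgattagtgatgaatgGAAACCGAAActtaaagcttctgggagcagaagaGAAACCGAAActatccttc
Bst2: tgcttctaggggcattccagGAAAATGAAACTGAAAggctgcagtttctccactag
Rsad2: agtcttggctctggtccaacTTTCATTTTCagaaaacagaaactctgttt
Cxcl10: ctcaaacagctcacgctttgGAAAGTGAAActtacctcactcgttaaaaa
Trim30a: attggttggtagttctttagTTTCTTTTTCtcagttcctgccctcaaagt
Ifitm2: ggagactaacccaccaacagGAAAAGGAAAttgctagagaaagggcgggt

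The IFIT proteins bind viral RNA ends and block translation. All 3 measured IFIT genes rose with AML1/ETO and none passed between W692A and GFP. Ifit1, the most changed effector gene and rank 13 of 18193 by log2 difference, read 3.39, 3.46 and 2.75 with GFP, 8.47, 8.76 and 8.39 with AML1/ETO, and 3.54, 3.80, 3.50 and 3.60 with W692A. The AML1/ETO arrays stood far above all others, and the W692A arrays were slightly above those of GFP without overlap. The log2 difference was 5.34 ± 0.174 (SE, n = 3 and 3, limma adjusted p = 2.41e-11) between AML1/ETO and GFP. Between W692A and GFP it was 0.41 ± 0.163 (n = 4 and 3, limma adjusted p = 0.121), and W692A was 30.5-fold below AML1/ETO (limma adjusted p = 2.75e-10). Ifit3, whose promoter also holds the core in 2 copies, was at background on all GFP and W692A arrays and at 3.34 to 4.04 with AML1/ETO, at least 3.21-fold higher than with GFP. Ifit2 rose 2.36-fold and fell 3.12-fold from AML1/ETO to W692A. The 3 genes lie on chromosome 19, Ifit2 and Ifit3 with no coding gene between them.

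Isg15 is a ubiquitin-like protein that Uba7 activates, Ube2l6 carries, Herc6 attaches in mouse cells and Usp18 removes. Of these 4 enzymes, 3 rose with AML1/ETO. Usp18, which also dampens interferon receptor signalling, read 4.73, 4.73 and 4.51 with GFP, 7.73, 7.60 and 7.62 with AML1/ETO, and 4.63, 4.41, 4.43 and 4.52 with W692A. The AML1/ETO arrays were apart from the rest, and W692A overlapped GFP. Usp18 was 7.98-fold higher with AML1/ETO than with GFP (log2 3.00 ± 0.117, limma adjusted p = 8.72e-11) and differed by -0.16 ± 0.109 between W692A and GFP (limma adjusted p = 0.418).

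Uba7 and Herc6 moved apart with the mutant. Uba7 read 5.22, 5.18 and 5.38 with GFP, 7.13, 7.43 and 7.80 with AML1/ETO, and 5.96, 6.15, 6.40 and 6.34 with W692A. The 3 groups did not overlap and W692A lay between the others. It was 4.57-fold higher with AML1/ETO and 1.93-fold higher with W692A than with GFP (limma adjusted p = 1.18e-07 and 0.000673). Herc6 read 5.04, 4.91 and 4.62 with GFP, 6.48, 6.38 and 6.88 with AML1/ETO, and 4.24, 4.00, 4.46 and 3.95 with W692A. Here W692A lay below GFP on every array. Against GFP it rose 3.30-fold with AML1/ETO (limma adjusted p = 1.62e-06) and fell 1.62-fold with W692A (limma adjusted p = 0.00786). Of the 2 other Herc6 probe sets above the bound, 1 rose with AML1/ETO and 1 did not pass. Neither passed between W692A and GFP, with log2 differences of 0.19 and 0.03, and the fall was lost when the gene's probe sets were averaged. Ube2l6 read 0.36, 0.51 and 0.31 with GFP, 0.69, 0.45 and 0.64 with AML1/ETO, and 0.34, 0.51, 0.35 and 0.43 with W692A. All of these are at background, so its level was not measurable here (limma adjusted p = 0.261 between AML1/ETO and GFP).

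The OAS enzymes make the 2′-5′ oligoadenylates that activate RNase L, and the OASL proteins are relatives that have other antiviral roles. All 4 measured members rose with AML1/ETO and none passed between W692A and GFP. Oasl1 read 1.22, 1.10 and 0.89 with GFP, 4.02, 4.22 and 4.39 with AML1/ETO, and 1.25, 1.56, 1.35 and 1.71 with W692A. Only the AML1/ETO arrays were above the bound. The gene was at least 4.50-fold higher than with GFP (log2 3.14 ± 0.148, limma adjusted p = 7.73e-10). Oasl2, its direct neighbour on chromosome 5, was at background in both other groups and at 4.71 to 5.07 with AML1/ETO, at least 7.08-fold higher. Oas2 rose 3.44-fold. Oas3 passed the test at a log2 difference of 0.80 ± 0.179 (limma adjusted p = 0.00274), with AML1/ETO arrays near the bound.

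The Mx proteins are GTPases that trap viral capsids, and Mx1 and Mx2 are annotated as transcribed pseudogenes in the C57BL/6 reference. Mx1 read 1.26, 1.35 and 1.21 with GFP, 2.10, 2.27 and 2.44 with AML1/ETO, and 1.16, 0.64, 0.78 and 0.81 with W692A. The AML1/ETO arrays were just above the bound and all others below it. With AML1/ETO it exceeded GFP at least 1.17-fold (limma adjusted p = 6.21e-05). Its fall with W692A was called (log2 -0.43 ± 0.133, limma adjusted p = 0.0441), between 2 groups at background, and 13 of 22 alternative settings lost it. Mx2 was called higher with AML1/ETO (limma adjusted p = 0.00183), but 1 AML1/ETO array alone (2.26) exceeded the bound, so its rise has no measured size.

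Of 4 genes for proteins that act at membranes, 2 rose and 2 fell with AML1/ETO. Bst2, which tethers budding virus to the cell surface, read 3.55, 3.17 and 3.24 with GFP, 5.31, 4.74 and 4.99 with AML1/ETO, and 3.89, 4.20, 3.64 and 3.76 with W692A. The groups did not overlap and W692A lay between. Bst2 was 3.23-fold higher with AML1/ETO and 1.47-fold higher with W692A than with GFP (limma adjusted p = 2.34e-06 and 0.0325).

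The IFITM proteins block the entry of viruses by fusion and are neighbours on chromosome 7. Ifitm3 rose 1.86-fold with AML1/ETO, and Ifitm1 and Ifitm2 fell. Ifitm1 read 9.36, 9.27 and 9.27 with GFP, 8.0, 7.94 and 7.39 with AML1/ETO, and 8.93, 8.45, 8.83 and 8.88 with W692A. AML1/ETO was lowest, GFP highest and W692A between them, without overlap. Ifitm1 was 2.87-fold lower with AML1/ETO (limma adjusted p = 4.78e-06) and 1.44-fold lower with W692A (limma adjusted p = 0.0336) than with GFP. It was the 1 effector gene higher with W692A than with AML1/ETO, 1.99-fold (limma adjusted p = 0.000286). Ifitm2 fell by 0.50 on the log2 scale with AML1/ETO (limma adjusted p = 0.0202), and this call was lost without GFP replicate 3 or AML1/ETO replicate 2 or 3.

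Of 5 genes that act on nucleotides or RNA, 4 rose with AML1/ETO. Rsad2 (viperin) makes a chain-terminating nucleotide, and read 5.07, 4.95 and 3.80 with GFP, 9.15, 9.01 and 9.03 with AML1/ETO, and 5.69, 5.36, 5.68 and 5.35 with W692A. The GFP arrays were spread widely, with replicate 3 lowest, and no groups overlapped. Rsad2 exceeded GFP 21.9-fold with AML1/ETO (limma adjusted p = 4.17e-09) and 1.88-fold with W692A (limma adjusted p = 0.0150). The other probe sets of Rsad2 also rose with AML1/ETO. Between W692A and GFP they did not pass (log2 0.57 and 0.26, limma adjusted p = 0.0697 and 0.416 in a fit over probe sets). Cmpk2, a nucleotide kinase and the direct neighbour of Rsad2 on chromosome 12, read 1.73, 2.25 and 2.16 with GFP, 1.59, 1.25 and 1.64 with AML1/ETO, and 0.58, 0.61, 1.33 and 0.68 with W692A. Only 2 GFP arrays exceeded the bound. Its calls, lower in both groups than in GFP (limma adjusted p = 0.0467 with AML1/ETO and 0.000302 with W692A), therefore rest on values at or near background, and 11 of 22 alternatives lost the first.

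Samd9l, which restricts virus replication and myeloid cell growth, read 6.60, 6.20 and 6.22 with GFP, 8.08, 7.39 and 8.02 with AML1/ETO, and 5.66, 5.49, 5.21 and 5.26 with W692A. The W692A arrays were below all GFP arrays and the AML1/ETO arrays above them. Against GFP it rose 2.81-fold with AML1/ETO (limma adjusted p = 1.68e-05) and fell 1.91-fold with W692A (limma adjusted p = 0.00192). Isg20, an exonuclease, rose 4.33-fold, and Ddx60, a helicase, at least 2.44-fold with AML1/ETO. Neither passed between W692A and GFP.

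The ADP-ribosylation genes Parp9, Parp12 and Parp14 and the ubiquitin ligase Dtx3l, the partner of Parp9, all rose with AML1/ETO, by log2 1.16 to 2.09, and none passed between W692A and GFP. Parp12 read 2.93, 3.29 and 2.96 with GFP, 4.95, 5.12 and 5.38 with AML1/ETO, and 3.04, 2.80, 2.17 and 2.92 with W692A. The AML1/ETO arrays were apart and the others overlapped. It was 4.25-fold higher with AML1/ETO than with GFP (limma adjusted p = 1.06e-06). Parp14, Dtx3l and Parp9 lie side by side on chromosome 16 and rose 2.53-fold, 2.26-fold and 2.24-fold.

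TRIM proteins are ubiquitin ligases of antiviral signalling. Trim30a, which restrains Toll-like receptor signalling, read 6.95, 6.83 and 6.74 with GFP, 9.20, 8.74 and 8.93 with AML1/ETO, and 7.54, 7.73, 7.51 and 7.74 with W692A. The 3 groups did not overlap, with W692A between. It was 4.32-fold higher with AML1/ETO and 1.73-fold higher with W692A than with GFP (limma adjusted p = 2.02e-08 and 0.000622). The other Trim30a probe set, also above the bound, rose with AML1/ETO. Between W692A and GFP that probe set did not pass (log2 0.32, limma adjusted p = 0.215 in a fit over probe sets). Trim21, an antibody receptor in the cytosol, read 5.98, 5.84 and 5.80 with GFP, 6.34, 6.48 and 6.48 with AML1/ETO, and 5.65, 5.30, 5.09 and 5.38 with W692A. GFP lay between the others. It was 1.47-fold higher with AML1/ETO and 1.44-fold lower with W692A than with GFP (limma adjusted p = 0.00582 and 0.0131). Trim25, which acts with the RNA sensor RIG-I, rose 1.5-fold with AML1/ETO.

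Of 3 nuclear genes, Xaf1, a promoter of cell death, read 3.47, 3.47 and 3.56 with GFP, 6.67, 6.47 and 6.25 with AML1/ETO, and 3.65, 4.05, 3.64 and 3.73 with W692A. AML1/ETO stood apart and W692A lay just above GFP. Xaf1 was 7.81-fold higher with AML1/ETO than with GFP (limma adjusted p = 8.35e-10), and W692A against GFP did not pass (limma adjusted p = 0.217). Sp100, a nuclear body protein, rose at least 1.86-fold with AML1/ETO. Ifi204, a DNA sensor, was called higher (log2 0.68 ± 0.181, limma adjusted p = 0.00911) but was at background on every array.

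Among genes for secreted proteins, Cxcl10, a chemokine that draws T cells, read 1.21, 1.67 and 1.5 with GFP, 4.76, 4.92 and 3.85 with AML1/ETO, and 2.64, 1.94, 1.49 and 2.08 with W692A. It was above the bound on all AML1/ETO arrays and on 2 of 4 with W692A. The rise with AML1/ETO was at least 5.54-fold (limma adjusted p = 7.60e-07), and W692A against GFP did not pass (limma adjusted p = 0.172). Lgals3bp and Lgals9, a galectin-binding protein and a galectin, rose at least 3.26-fold and 2.30-fold with AML1/ETO.

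Ifi27l2a, a small mitochondrial protein gene, read 2.94, 2.82 and 2.52 with GFP, 7.79, 7.82 and 7.59 with AML1/ETO, and 3.28, 3.61, 3.92 and 3.04 with W692A. The AML1/ETO arrays were apart by over 3 log2 units, with W692A just above GFP. It was 31.5-fold higher with AML1/ETO and 1.63-fold higher with W692A than with GFP (limma adjusted p = 7.35e-11 and 0.0149). Rtp4, a chaperone of membrane receptors, rose 10.3-fold with AML1/ETO, from 4.87 to 5.02 with GFP to 8.29 to 8.33, the narrowest spread of the 3 groups. Ifi35 rose 1.94-fold, Tor3a 1.67-fold and Tdrd7 at least 1.35-fold with AML1/ETO, and none of these 4 passed between W692A and GFP.

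Epsti1 was the 1 effector gene above background that did not pass between AML1/ETO and GFP. It read 4.69, 4.52 and 4.30 with GFP, 4.47, 4.60 and 4.86 with AML1/ETO, and 4.00, 3.51, 3.49 and 3.42 with W692A. GFP and AML1/ETO overlapped and W692A lay below both. Its log2 difference was 0.14 ± 0.166 between AML1/ETO and GFP (limma adjusted p = 0.646), and it was 1.87-fold lower with W692A than with GFP (limma adjusted p = 0.00103).

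**Figure D2:**
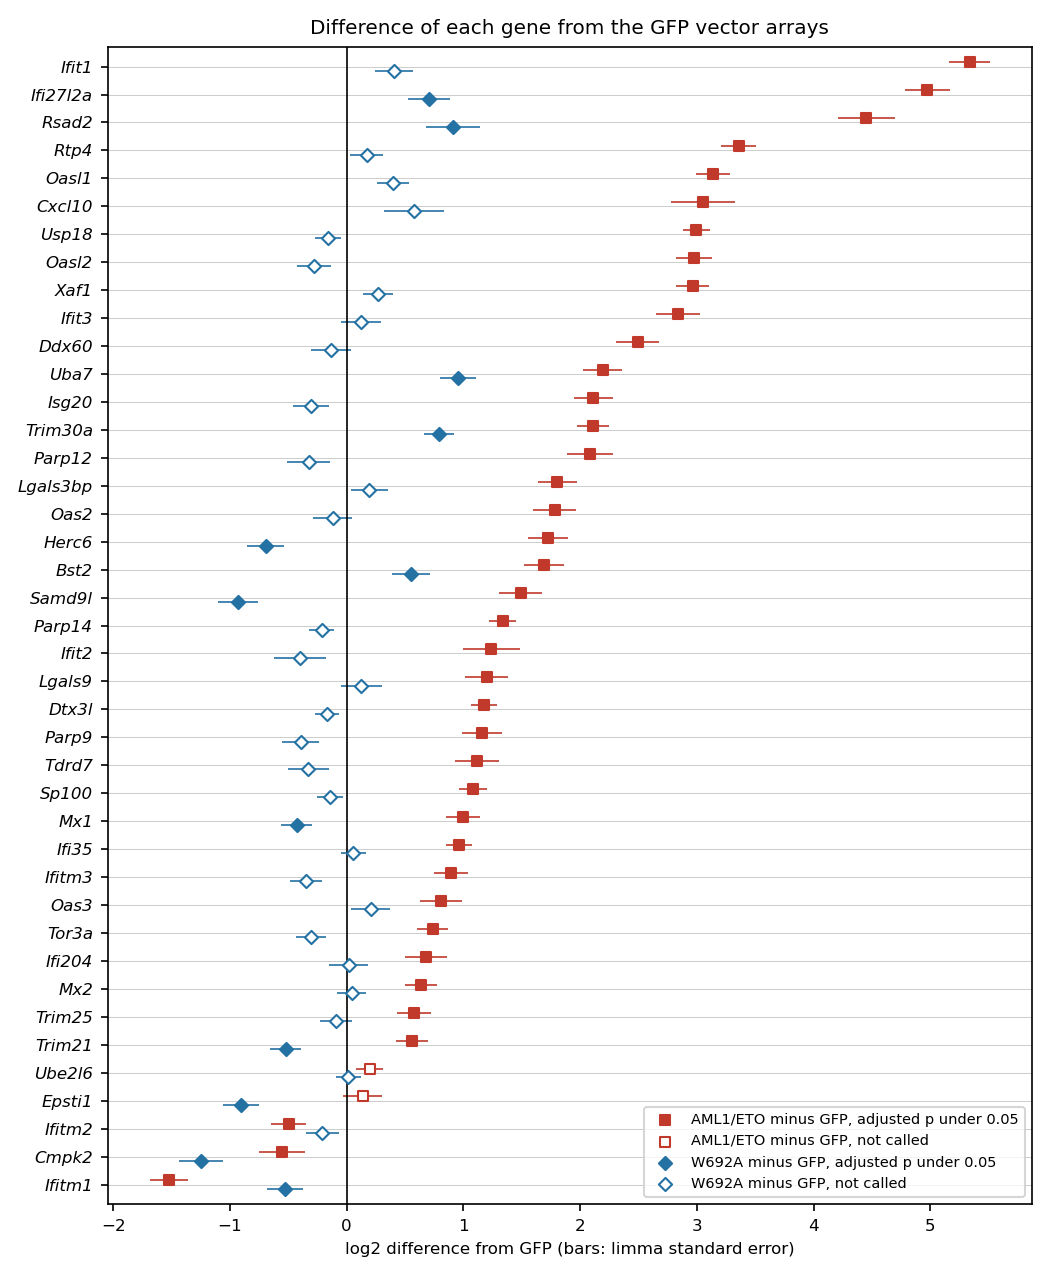
Log2 difference from GFP (x axis) of each effector gene with AML1/ETO (squares) and W692A (diamonds), with limma standard errors as bars and filled symbols for an adjusted p under 0.05, sorted by the AML1/ETO difference. From Ifit1 at 5.34 the squares fall to Ifitm1 at -1.52, and the diamonds stay between -1.25 and 0.95.

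Across both constructs, 27 genes rose with AML1/ETO, did not pass between W692A and GFP, and were lower with W692A than with AML1/ETO. Another 5 (Bst2, Ifi27l2a, Rsad2, Trim30a and Uba7) rose with both and were lower with W692A than with AML1/ETO. A further 4 (Herc6, Mx1, Samd9l and Trim21) were called higher with AML1/ETO and lower with W692A than with GFP. Of these, Mx1 was at background with GFP and W692A. Of the 5 rises and 7 falls with W692A, only that of Uba7 was kept in all 22 alternative settings in which each was tested, against 32 of the 36 rises with AML1/ETO. With the Gapdh 3′ minus 5′ control difference of each array as a covariate, 1 effector gene (Uba7) was higher and 1 (Ifitm1) lower with W692A than with GFP, in place of 5 and 7, while 33 were higher with AML1/ETO. That control difference is a measure of RNA length after amplification. It averaged 4.93 ± 0.0889 on the GFP arrays (SD, n = 3) and 4.38 ± 0.573 on the AML1/ETO arrays (n = 3). On the W692A arrays it averaged 4.01 ± 0.168 (SD, n = 4). Its GFP values (4.83 to 4.99) and W692A values (3.81 to 4.17) did not overlap, so that fit cannot separate it from the construct. Its part in these calls was not tested further. Without GFP replicate 3, 3 genes were higher with W692A, and without GFP replicate 1, 3 were lower. The rises of Rsad2 and Trim30a and the falls of Samd9l and Cmpk2 with W692A were lost only with the Gapdh covariate. The fall of Mx1 was lost in 13 of the 22 settings.

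In the direct comparison of the constructs, 32 effector genes were lower with W692A by at least 1 log2 unit and 15 by at least 2. By log2 difference the largest falls from AML1/ETO to W692A were those of Ifit1 (30.5-fold), Ifi27l2a (19.3-fold), Rsad2 (11.6-fold), Oasl2 (at least 7.08-fold), Rtp4 (9.11-fold) and Usp18 (8.91-fold). Next came Oasl1 (at least 4.50-fold), Ifit3 (at least 3.21-fold) and Xaf1 (6.48-fold). The groups overlapped for 4 genes, Oas3, Cmpk2, Ifitm2 and Ube2l6, of which all but Ifitm2 were at or near background.

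The median signal over all 41 effector genes was 6.02, 5.71 and 6.08 on the 3 AML1/ETO arrays, 3.50 to 3.84 on the GFP arrays and 3.64 to 3.85 on the W692A arrays. All AML1/ETO arrays were thus above the others, which overlapped. The Gapdh control difference was 4.08, 4.01 and 5.04 on AML1/ETO replicates 1 to 3. On the third of these Cxcl10 (3.85) and Ifit3 (3.34) were lower than on the other 2. Other genes, Herc6 (6.88) and Oasl1 (4.39) among them, were highest there. The median over all 41 genes (6.08) also was highest on that array. Of 26 further probe sets for these genes, 14 were above the bound, and 13 of those were higher with AML1/ETO than with GFP and 13 lower with W692A than with AML1/ETO. Between W692A and GFP, 1 of the 14 was higher, 0 were lower and 13 did not pass.

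**Figure D3:**
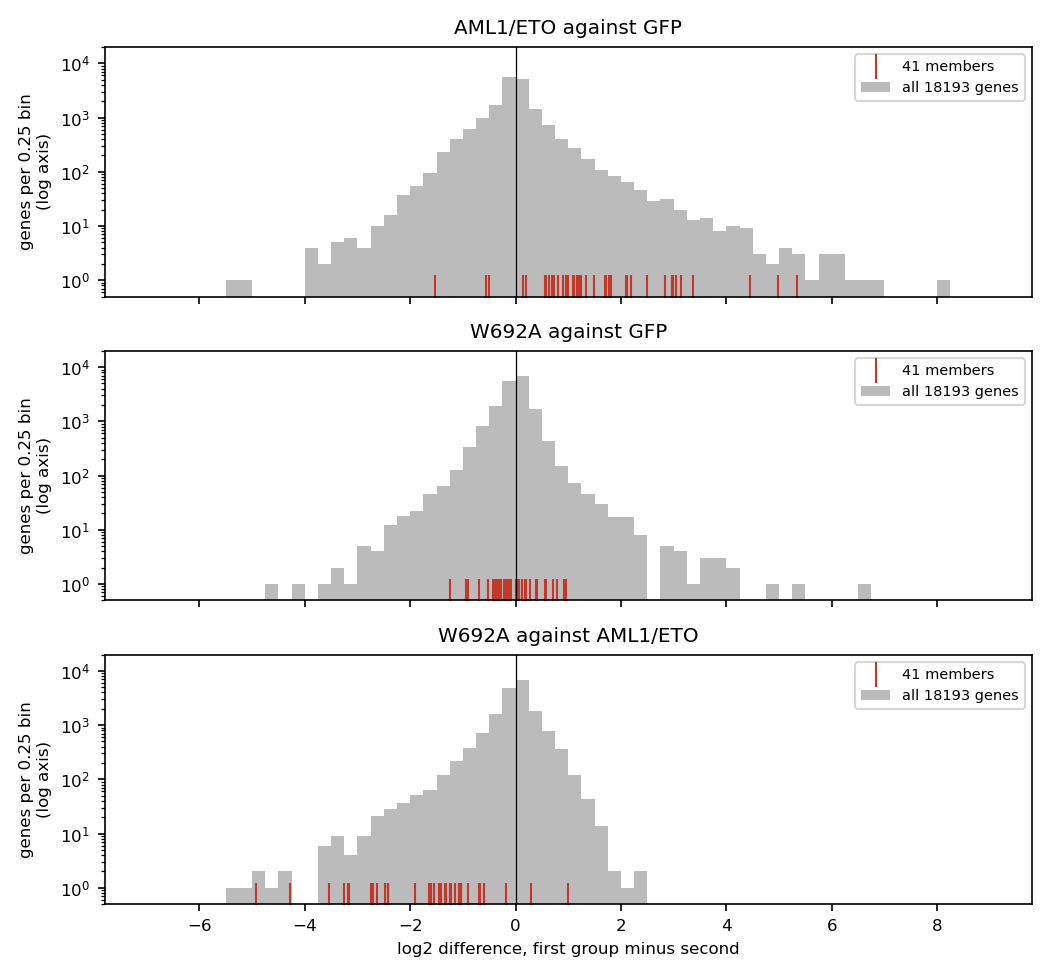
Histograms of the log2 difference of all 18193 genes in 0.25-unit bins (log y axis) in 3 panels, 1 per comparison, with a red tick for each of the 41 effector genes. The ticks have their median at 1.34 between AML1/ETO and GFP, at -0.13 between W692A and GFP and at -1.44 between W692A and AML1/ETO.

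The genes that signal upstream of the effectors were taken from a list of 40, of which 34 were measured and 24 exceeded the bound in the mean of some group. Between AML1/ETO and GFP, 9 rose and 5 fell, with a median log2 difference of -0.01. These are 26.5% and 14.7% of the list, beside 12.9% and 15.8% of all genes. Between W692A and GFP 2 rose and 4 fell (5.88% and 11.8%, beside 5.45% and 9.07%). Between W692A and AML1/ETO 3 were higher and 8 lower (8.82% and 23.5%, beside 9.61% and 11.1%). The share that fell with AML1/ETO and both shares with W692A against GFP were near those of all genes. Of 9 interferon genes, 8 were at background on every array, between 0.17 and 1.20. The ninth, Ifnz, was 2.15 to 2.47 with GFP and 2.78 to 3.11 with AML1/ETO, a 1.48-fold rise (limma adjusted p = 0.0104). Among receptor genes Ifnar1 rose 1.88-fold and Ifngr2 fell 1.40-fold with AML1/ETO, and among kinases Jak1 rose 1.34-fold. Neither Ifnar1, Ifngr2 nor Jak1 passed between W692A and GFP, while Jak2 was 1.60-fold lower with W692A than with GFP (limma adjusted p = 0.00470).

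Of 10 transcription factors, 5 rose and 2 fell with AML1/ETO. Irf9, the DNA-binding partner of Stat2, read 3.93, 4.10 and 3.95 with GFP, 5.51, 5.74 and 5.47 with AML1/ETO, and 3.66, 4.29, 3.98 and 3.91 with W692A. AML1/ETO was apart and W692A overlapped GFP, and the rise was 2.99-fold (limma adjusted p = 1.17e-06). Irf7, the amplifier of interferon gene expression, read 1.98, 1.79 and 2.01 with GFP, 3.50, 3.10 and 3.17 with AML1/ETO, and 1.80, 1.81, 1.61 and 1.96 with W692A. It was above the bound with AML1/ETO alone, at least 2.33-fold higher than with GFP (limma adjusted p = 2.68e-06). Stat2 also was above the bound with AML1/ETO alone, at 2.27 to 2.71, at least 1.30-fold higher (limma adjusted p = 4.26e-05). Irf2 and Irf5 rose 1.53-fold and 1.78-fold. Irf1 and Irf3 fell with both constructs, Irf1 1.65-fold with AML1/ETO and 1.41-fold with W692A, and Irf3 1.81-fold and 1.45-fold. With W692A against GFP, Irf8 rose 1.70-fold and Irf4 fell at least 1.70-fold (limma adjusted p = 0.00146 and 0.00866). Among inhibitors Ptpn2 rose, and Ptpn6 and Ptpn11 fell, with AML1/ETO. Socs3 rose 1.44-fold with W692A against GFP (limma adjusted p = 0.0249).

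**Figure D4:**
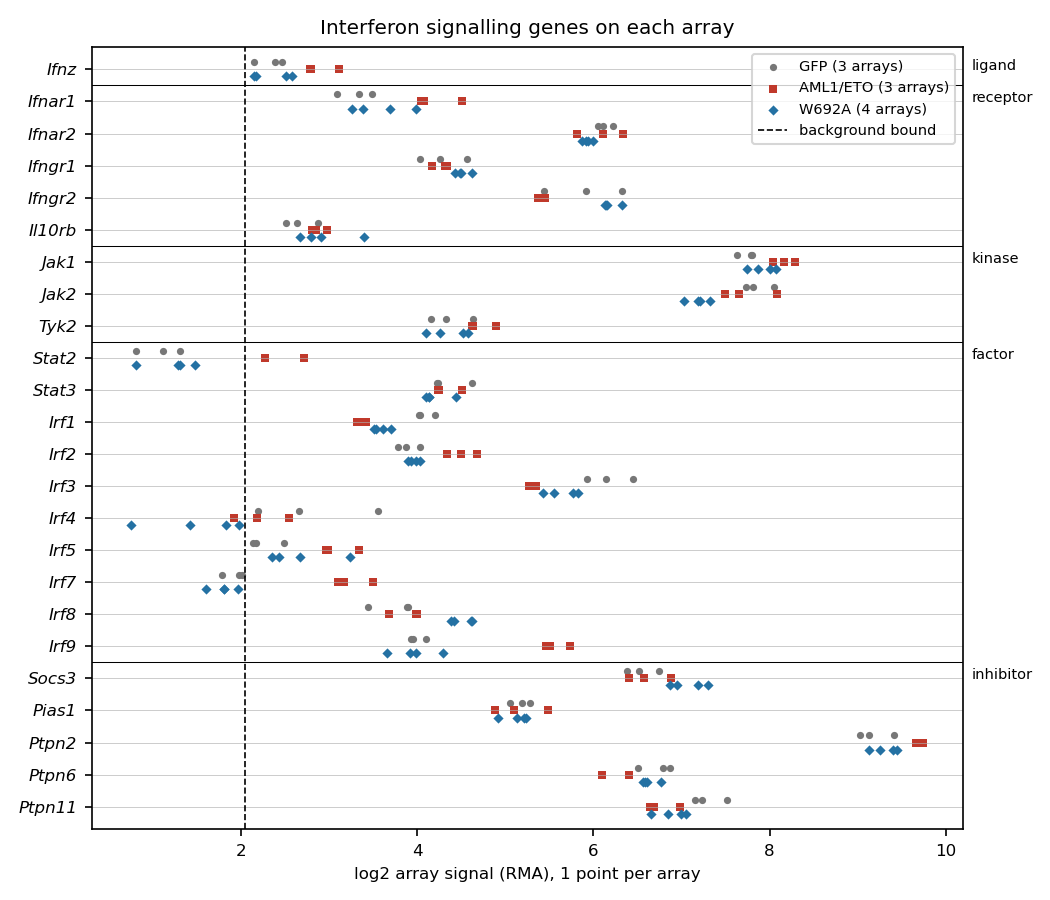
Log2 array signal (x axis) of the 24 interferon signalling genes whose mean in some group exceeded the background bound of 2.04 (dashed line), grouped by role, with 1 point per array for GFP (3), AML1/ETO (3) and W692A (4). Irf9, Irf7 and Stat2 are highest on every AML1/ETO array, and Irf1 and Irf3 are lowest there.

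Cells that make much interferon or respond strongly to it were checked by their markers, since bulk RNA cannot tell more cells of a type from more RNA per cell. Of 8 measured plasmacytoid dendritic cell markers, 5 were above the bound, and Siglech, Ccr9 and Ly6d were at background on every array. Their summed linear signal was 186 to 192 with GFP, 205 to 285 with AML1/ETO and 208 to 237 with W692A, and 1 rose and 4 fell with AML1/ETO. Of 11 monocyte, macrophage and dendritic cell markers, 7 were above the bound, and Fcgr1, Itgam, Itgax and Ccr2 were at background. Their sum was 410 to 507 with GFP, 902 to 1239 with AML1/ETO and 757 to 856 with W692A, and 5 rose and 2 fell with AML1/ETO while 4 rose with W692A. The sum of 9 markers of the sorted cells was 242 to 276 with GFP, 831 to 923 with AML1/ETO and 447 to 535 with W692A. Of these markers, 6 rose and 1 fell with AML1/ETO. Hlf was the brightest there, at log2 8.41 to 8.42 against 3.71 to 4.36 with GFP. The sum of 4 megakaryocyte markers (219 to 306, 777 to 816 and 271 to 391) also was highest with AML1/ETO. Of these 4, however, 3 fell there and 1, Pf4, rose. The sum of 9 neutrophil markers was 673 to 925 with GFP, 439 to 707 with AML1/ETO and 329 to 561 with W692A. Of these markers, 2 rose and 5 fell with each construct against GFP. Each sum weighs its brightest gene most, which with AML1/ETO was Tcf4, Lyz2, Hlf, Pf4 and Mpo in turn. Beside these marker counts, 12.9% of all genes were called higher and 15.8% lower with AML1/ETO than with GFP. With W692A these shares were 5.45% and 9.07%. The part of such cells in the effector gene result was not tested.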

How the data were processed

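RNA of 10 samples (50 ng each, amplified in more than 1 round, per the labels' protocols) was measured on 1 array each. The deposited values are log2 signals from RMA, per the submitters' processing notes, without a version. The base was not stated and was taken as 2 from the range (-0.18 to 12.77). RMA gives all arrays 1 distribution, so a shift of total RNA would not show. Of 45101 probe sets, 64 were controls, 9160 had no listed gene, 932 had several and 34945 had 1. Symbols were updated to GRCm38.p6 for 34741.

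Groups came from the sample labels. limma 3.58.1 (R 4.3.3; lmFit and eBayes, 1 fit of 3 groups) was run over 18193 genes, with Benjamini-Hochberg adjustment and a threshold of 0.05, and checked on simulated data. The members and lists were chosen with earlier results of these data known. Every effector gene is named. Values per array are given for the most changed gene of each role, for those not passing between AML1/ETO and GFP, and for those passing between W692A and GFP. Rtp4 and other genes shown by range, and Irf9, Irf7 and Stat2, were chosen after their values were seen. In all, 22 alternatives were run. Replicate numbers were not used to pair the samples. The number of arrays limits the precision. Some genes are not analysed here.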

Additional observations from a re-analysis of the deposited data

Results flagged for a closer look

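In the W692A group, the 1 with 4 arrays, 1 array lay far from the other 3 for 6 of 50 genes checked that exceeded the background bound there. Chance flags about 1 in 20 such groups. The outlying array differed between genes. It was replicate 1 for Parp9 (5.81) and Epsti1 (4.00), replicate 3 for Ifi35 (9.39) and Stat3 (4.44), and replicate 4 for Dtx3l (5.16) and Ifngr2 (6.32). The values are log2 signals, each the highest of the group.

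For 4 effector genes the constructs were called in opposite directions from GFP, and the difference between W692A and AML1/ETO was itself called. The log2 difference of W692A minus AML1/ETO was -2.42 for Herc6, -1.42 for Mx1, -2.42 for Samd9l and -1.08 for Trim21. In each, the GFP arrays lay between those of the constructs without overlap. For Herc6 the 2 other probe sets above the bound did not pass between W692A and GFP.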

How the results depend on the processing

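Of the 36 effector genes higher with AML1/ETO than with GFP, 32 kept that call in all 22 alternatives in which they were tested (the others were Oas3, Trim21, Trim25 and Ifi204), and 35 of 38 kept theirs between W692A and AML1/ETO. No call reversed. The 3 effector genes lower with AML1/ETO became 1 with the spike-in level as a covariate and 1 with a 1.5-fold minimum, and 1 to 3 when an array was left out. Between W692A and GFP, the 5 higher became 1 and the 7 lower became 1 with the Gapdh covariate; the 7 became 4 when a gene's probe sets were averaged and 4 with a 1.5-fold minimum, and leaving out an array gave 3 to 5 and 3 to 8. All genes called there fell from 2642 to 506 with the Gapdh covariate and 1637 with the 1.5-fold minimum, which gave 2317 in place of 3765 between W692A and AML1/ETO. Calls in the signalling list were 14, 6 and 11 in the 3 comparisons, and 8, 3 and 6 with the 1.5-fold minimum. The 6 were 1 with the Gapdh covariate. Leaving out an array gave 10 to 14 in the first and 3 to 7 in the second. The Gapdh control difference did not overlap between GFP and W692A arrays, so that covariate cannot be separated from the construct. The causes were not tested. With the replicate number as a block the effector genes gave 36 higher and 3 lower, 5 and 7, and 1 and 38, and all genes 5272, 2344 and 3509 in place of 5207, 2642 and 3765. Arrays of the same number correlated at -0.12 to 0.44 after removing group means, and 5 of 9 correlated best with their own number, so the numbers were not used as pairs. Signal near the background bound limits the 14 of 41 effector genes not above it on every array.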
